A study of Mus musculus with 6 samples.

Results

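Amino acid transporters are membrane proteins that carry amino acids into and out of cells, and 10 of their genes are described here on the arrays of GapmeR Ntep and GapmeR control cultures. The members were set as a list of gene symbols: Slc3a2, Slc7a11, Slc7a5, Slc7a1, Slc7a3, Slc1a4, Slc1a5, Slc38a1, Slc38a2 and Slc6a9. They are 10 of the 35527 gene names on the array, and 15 of its 55681 probes that are not controls carry 1 of these names. Ntep is a long non-coding RNA that the study silenced to ask which transcripts depend on it. A GapmeR is a short antisense oligonucleotide whose DNA core lets RNase H cut the RNA it pairs with. Cells were of the 3T3 line, immortalised fibroblasts from mouse embryos, so all values come from 1 cultured line and from 1 GapmeR sequence against its control. Cultures received GapmeR Ntep at 50 nM, or the control GapmeR at the same dose, and RNA was taken after 48 h. There were 3 experiments with 1 array of each kind, which gave 6 one-color Agilent arrays.

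The targeted transcript is listed as A630089N07Rik and has 1 probe, at chr16:98283712-98283771 on the minus strand of mm9. After normalization it read 472, 91.5 and 226 in replicates 1, 2 and 3 labelled GapmeR Ntep, and 271, 272 and 361 in those labelled GapmeR control. The log2 difference was -0.48 (SE 0.58, limma adjusted p = 0.632), which is within the spread between replicates. In experiment 1 the probe was higher by 0.80 on the array labelled GapmeR Ntep, against that label, and in experiments 2 and 3 it was lower (-1.57 and -0.68). In that experiment the collagen genes Col1a1 and Col3a1 were lower on the array labelled GapmeR Ntep (-0.53 and -1.15), as in experiment 2 (-0.11 and -0.61) and experiment 3 (-0.66 and -0.68). Because of the Ntep probe, arrays are called by their labels, every direction below is that of the label, and some results are also given without experiment 1. Between 43.7% and 53.3% of probes were well above background on an array, and no spot was saturated. The fibroblast genes Col1a1, Col1a2, Fn1 and Vim were well above background on all 6 arrays, and 9 of 12 fibroblast markers were so.

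The members belong to families with different substrates. Slc3a2 encodes the CD98 heavy chain, which holds light chains such as Slc7a5 and Slc7a11 in the plasma membrane. Slc7a5 is LAT1, an exchanger of large neutral amino acids such as leucine, and Slc7a11 is xCT, the light chain of the system that takes up cystine in exchange for glutamate. Slc7a1 and Slc7a3 are CAT1 and CAT3, carriers of the cationic amino acids arginine and lysine. Slc1a4 and Slc1a5 (ASCT1 and ASCT2) exchange small neutral amino acids and, for Slc1a5, glutamine. Slc38a1 and Slc38a2 (SNAT1 and SNAT2) are sodium-coupled neutral carriers, and Slc6a9 is GLYT1, a glycine transporter. Many of these genes are known targets of ATF4, the transcription factor whose mRNA is preferentially translated when eIF2alpha is phosphorylated during amino acid shortage or other stress.

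The RefSeq promoter table for GRCm38.p6, which spans 250 bases before to 50 bases after a start site, holds 6 of the 10 members. Sites of ATF4 with a C/EBP partner, known from amino acid response elements, were searched with the letters TGATGCAA on both strands. This string was found in 294 of 32851 promoters (0.895%), and among the members in those of Slc7a11 and Slc1a4. Slc7a11 holds it on the gene's strand from base -66 to -59 before the start, and in the opposite direction from -47 to -40. Slc1a4 holds it in the opposite direction across the start, from base -4. A looser string, TGATGNAA, contains the first, was present in 3.97% of promoters, and marked the same 2 members at the same places. The core TGACNNNGC of the antioxidant response element, bound by NRF2, was in 12.4% of promoters and in a promoter of each of Slc38a2, Slc6a9 and Slc7a1. Slc6a9 and Slc7a1 have more than 1 promoter each, and not all of them hold the core. The share thus counts promoters, while members are counted as genes. All these strings are matches of letters and not measured binding. Of the following 3 promoters, those of Slc7a11 and Slc1a4 are shown for the string, and that of Slc3a2, the only member whose brightest probe had an unadjusted p under 0.05, is shown as one in which the string was not found. Each is written on the gene's own strand, with TGATGCAA or its reverse complement in capitals. They lie on the minus strand at chr3:50443564-50443863, chr11:20332664-20332963 and chr19:8713848-8714147.
Slc7a11: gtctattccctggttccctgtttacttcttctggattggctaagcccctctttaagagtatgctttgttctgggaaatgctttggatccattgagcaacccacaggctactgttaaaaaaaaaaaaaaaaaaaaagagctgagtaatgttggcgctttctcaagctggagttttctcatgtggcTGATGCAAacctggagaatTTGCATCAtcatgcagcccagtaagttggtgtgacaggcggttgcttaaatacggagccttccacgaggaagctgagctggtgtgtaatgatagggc
Slc1a4: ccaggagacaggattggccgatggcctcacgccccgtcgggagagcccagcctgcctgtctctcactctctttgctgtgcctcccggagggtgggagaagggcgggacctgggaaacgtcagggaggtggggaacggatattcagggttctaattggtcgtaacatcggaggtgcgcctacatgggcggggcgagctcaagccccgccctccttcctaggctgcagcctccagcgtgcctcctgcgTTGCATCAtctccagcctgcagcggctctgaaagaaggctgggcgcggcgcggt
Slc3a2: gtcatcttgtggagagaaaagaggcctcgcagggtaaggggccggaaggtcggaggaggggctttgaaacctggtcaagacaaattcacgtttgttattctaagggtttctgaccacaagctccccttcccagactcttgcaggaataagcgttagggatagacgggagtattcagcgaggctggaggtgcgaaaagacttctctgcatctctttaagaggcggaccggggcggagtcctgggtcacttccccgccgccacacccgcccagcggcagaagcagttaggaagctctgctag

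Which way transporter mRNAs moved was asked by comparing the arrays labelled GapmeR Ntep with those labelled GapmeR control, 3 against 3. All 15 probes passed the filter on dim probes, which asked for a mean signal of 50 or more under 1 of the labels, and 14 were well above background on all 6 arrays. No member passed a limma adjusted p under 0.05 by its brightest probe, where 5.17% of the 22070 tested genes did so. At the level of probes 0 of 15 passed, against 5.3% of 30990. At an unadjusted p under 0.05, 1 member was higher (Slc3a2) and none lower, where 12.3% of all genes were higher. No member passed a fold of 2 with an unadjusted p under 0.01, against 7.89% of genes, and the methods' t-test on the same values called no member either. By their brightest probes 8 of the 10 members had a higher mean, where 54.3% of all tested genes did, and 2 (Slc1a4 and Slc6a9) a lower one. The median log2 difference of the members was 0.27, beside 0.06 over all tested genes, and single members ranged from -0.25 to 1.40. For 2 members, Slc3a2 and Slc38a2, all 3 arrays labelled GapmeR Ntep lay above all 3 controls, a pattern that 17.1% of genes had. In RNA from whole cultures, less RNA per cell and fewer cells that carry it cannot be told apart.

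**Figure D1:**
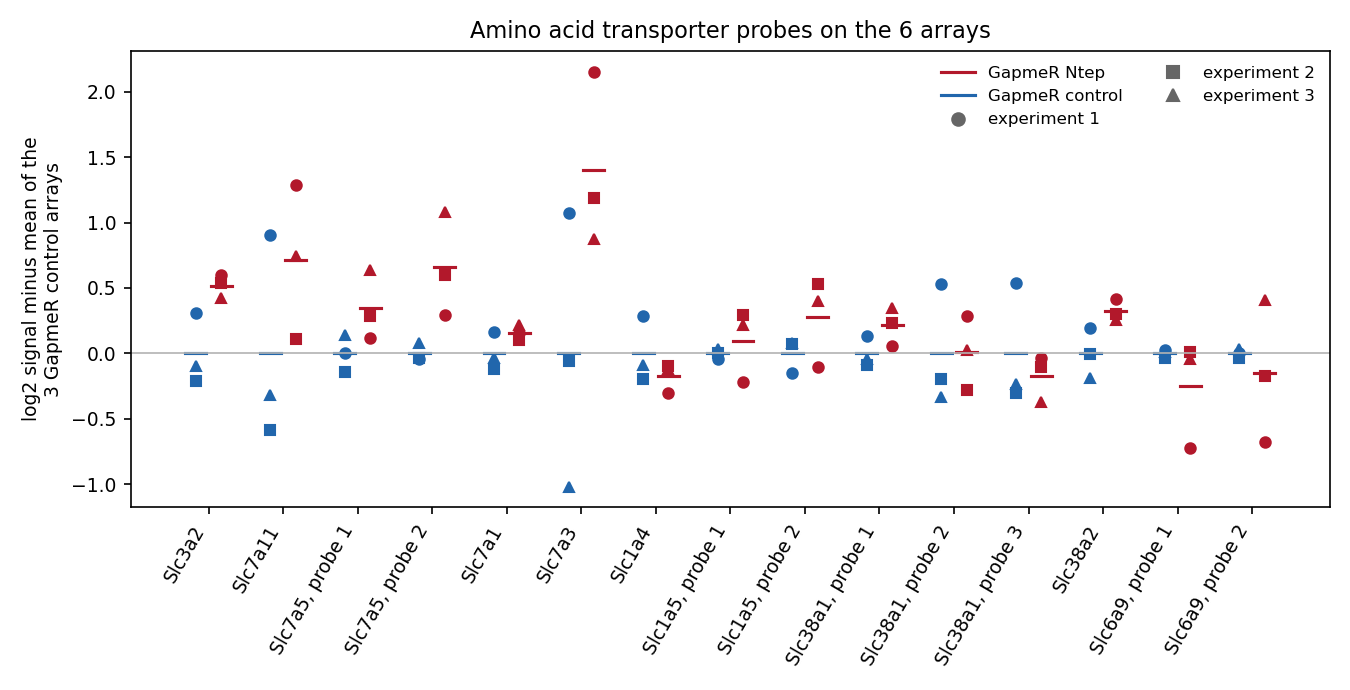
Signal of the 15 transporter probes on the 6 arrays, as log2 signal minus the mean of the 3 GapmeR control arrays of the same probe. Red points are arrays labelled GapmeR Ntep, blue points GapmeR control, shapes are the 3 experiments, short lines are group means, and probe 1 is the brightest probe of a gene. The groups stand apart for Slc3a2, Slc38a2 and the second Slc7a5 probe, while Slc7a11 and Slc7a3 have experiment 1 high in both groups.

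Slc3a2, the heavy chain, was measured by 1 probe at chr19:8782189-8782248 (minus strand, mm9; from base 1695 of its transcript). It read 72428, 69220 and 63983 with GapmeR Ntep and 59057, 41374 and 44673 with GapmeR control. The lowest GapmeR Ntep array thus lay above the highest control, and experiment 1 was the highest of each group. Means were 68544 ± 4263 and 48368 ± 9403 (SD, n = 3), a log2 difference of 0.52 (1.43-fold; SE 0.20, 95% interval 0.04 to 1.00, limma unadjusted p = 0.0385, adjusted p = 0.174). Within the 3 experiments it was higher by 0.29, 0.74 and 0.52. An exact permutation test of this value gave p = 0.1 (two-sided), which is the smallest p that 3 against 3 arrays allow.

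Slc7a11, the cystine light chain, has 1 probe at chr3:50169700-50169759 (minus strand; from base 8325 of the transcript). Signals were 717, 316 and 492 with GapmeR Ntep and 549, 195 and 235 with GapmeR control. In both groups the array of experiment 1 was the highest, and the 549 of its control exceeded the GapmeR Ntep arrays of experiments 2 and 3, so the groups overlapped. The mean went from 326 ± 194 to 509 ± 201 (SD, n = 3), a log2 difference of 0.72 (SE 0.49, 95% interval -0.47 to 1.90, adjusted p = 0.408). Compared within experiments, the GapmeR Ntep array was higher each time, by 0.39, 0.70 and 1.06. With the experiments as blocks the standard error was 0.19 in place of 0.49 and the interval 0.19 to 1.24, but the adjusted p of 0.0796 still missed the threshold.

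Slc7a5, the leucine exchanger, was covered by a bright probe near the end of the transcript (chr8:124405136-124405195, minus strand, from base 3363) and a dim one nearer its beginning (chr8:124430996-124431055, from base 533). The bright probe read 6972, 7858 and 10001 with GapmeR Ntep and 6463, 5830 and 7088 with GapmeR control. Only the GapmeR Ntep array of experiment 1 fell within the range of the controls, and the log2 difference was 0.35 (SE 0.20, 95% interval -0.15 to 0.84, adjusted p = 0.341). The dim probe read 255, 315 and 441 against 203, 203 and 220. Here the groups did not overlap and the difference was 0.66 (SE 0.24, interval 0.07 to 1.24, unadjusted p = 0.0326, adjusted p = 0.159). Both probes were higher in each experiment, by 0.11, 0.43 and 0.50 for the bright one and by 0.33, 0.63 and 1.00 for the dim one. Under the alternative settings the dim probe's difference ranged from 0.10, with a normexp background correction and an offset of 50, to 0.93 with array weights.

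Of the cationic carriers, Slc7a1 has 1 probe at chr5:149139957-149140016 (minus strand, from base 6148). It read 40586, 39073 and 42356 with GapmeR Ntep and 40740, 33512 and 35511 with GapmeR control. The control of experiment 1 lay among the GapmeR Ntep arrays, and the log2 difference was 0.16 (SE 0.16, 95% interval -0.24 to 0.55, adjusted p = 0.574). Slc7a3 has a probe at chrX:98274644-98274703 (minus strand, from base 2227) that was dim throughout and not well above background on GapmeR control replicate 3. Its signals were 350, 179.5 and 144 with GapmeR Ntep and 166, 75.6 and 38.9 with GapmeR control. As for Slc7a11, experiment 1 was the highest in both groups and its control exceeded 1 GapmeR Ntep array. The log2 difference of 1.40 (2.65-fold; SE 0.60, 95% interval -0.06 to 2.87, unadjusted p = 0.0572, adjusted p = 0.214) was the largest of the 10 members in size.

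Slc7a3 was higher by 1.08, 1.25 and 1.89 within the 3 experiments. With the experiments as blocks its standard error was 0.22 and its 95% interval 0.81 to 2.002, and it passed with an adjusted p of 0.0378. It was the only member to do so, in a fit that called 13.9% of all genes. Across the other settings, which leave the blocks out, its difference ranged from 0.69 to 1.95 and it passed in 1 more (array weights). The lowest of these settings was the normexp correction with its offset of 50, which acts most on dim probes.

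**Figure D2:**
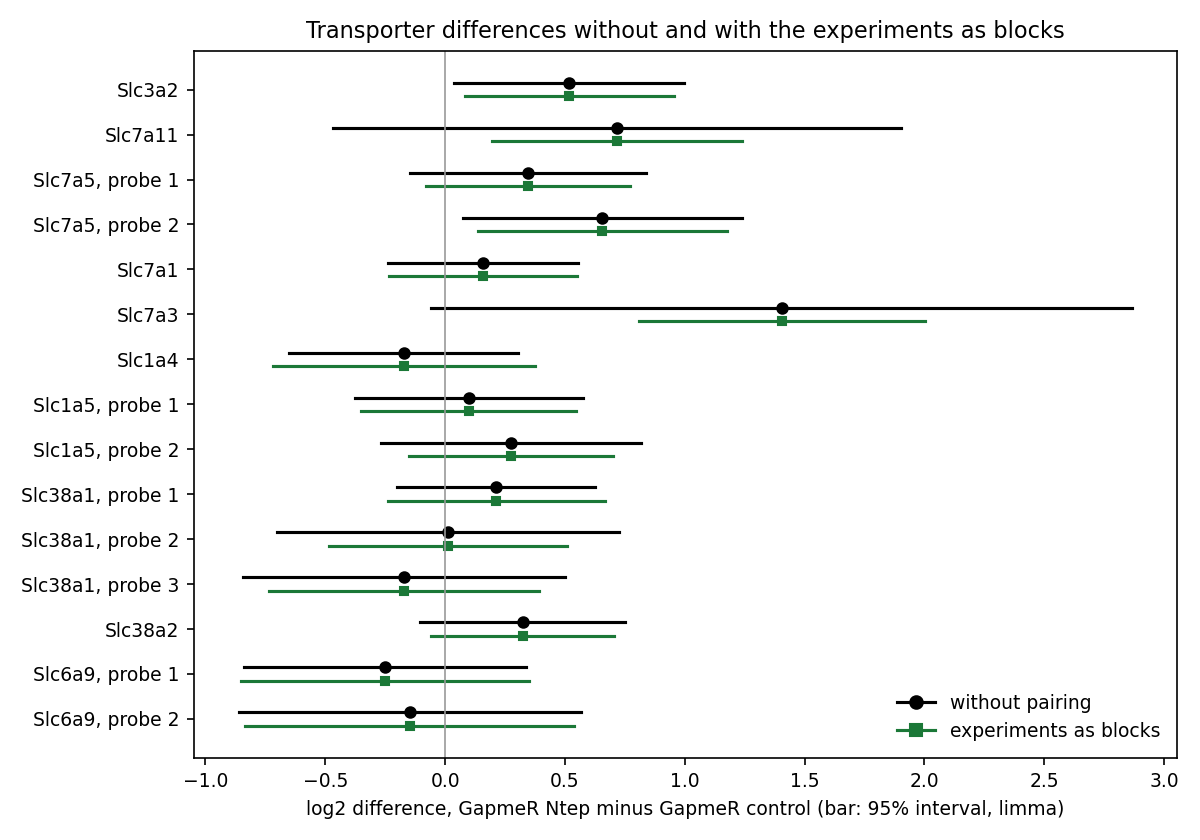
Log2 difference between arrays labelled GapmeR Ntep and GapmeR control for the 15 probes (x axis), with 95% intervals from limma without pairing (black circles) and with the 3 experiments as blocks (green squares). The blocks narrow the interval of Slc7a11 to 0.19 to 1.24 and that of Slc7a3 to 0.81 to 2.002, and change the others less.

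For the neutral exchangers the differences were within the spread between replicates. Slc1a4 has 1 probe (chr11:20202615-20202674, minus strand, from base 3434), which read 2906, 3363 and 3308 with GapmeR Ntep and 4385, 3131 and 3376 with GapmeR control. The control of experiment 1 was the highest of the 6, and the log2 difference was -0.17 (SE 0.19, 95% interval -0.65 to 0.30, adjusted p = 0.608). Without the 2 arrays of experiment 1 it was 0.04. Slc1a5, the glutamine exchanger, has 2 probes, 1 of them upstream of the other. The brighter one (chr7:17383359-17383418, plus strand, from base 2493) read 31228, 44559 and 42169 against 35289, 36439 and 37219. The GapmeR Ntep array of experiment 1 was the lowest and the other 2 the highest of the 6, and the difference was 0.10 (SE 0.19, interval -0.38 to 0.57, adjusted p = 0.781). The second probe (chr7:17383027-17383086, from base 2161) differed by 0.28 (SE 0.22, adjusted p = 0.484).

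Slc38a2, the sodium-coupled carrier whose mRNA is known to rise on amino acid shortage, has 1 probe at chr15:96518491-96518550 (minus strand, from base 3900). It read 66616, 61538 and 59736 with GapmeR Ntep and 57197, 49877 and 43782 with GapmeR control. The groups did not overlap, and the log2 difference was 0.32 (1.25-fold; SE 0.17, 95% interval -0.10 to 0.75, unadjusted p = 0.113, adjusted p = 0.307). It was higher by 0.22, 0.30 and 0.45 within the experiments. Slc38a1 was covered by 3 probes along its transcript, from bases 2748, 4354 and 6788 (chr15:96406793-96406852, chr15:96405187-96405246 and chr15:96402753-96402812, minus strand). The first and brightest read 21636, 24377 and 26425 with GapmeR Ntep and 22743, 19497 and 20153 with GapmeR control. Its difference was 0.21 (SE 0.17, 95% interval -0.20 to 0.63, adjusted p = 0.476), and those of the other 2 probes were 0.01 (SE 0.29) and -0.17 (SE 0.28), so the 3 probes had no common direction.

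Slc6a9, the glycine transporter, has 2 probes shifted by 9 bases (chr4:117541842-117541901 and chr4:117541851-117541910, plus strand, from bases 3203 and 3212), so they do not measure it independently. The brighter one read 17396, 28954 and 27913 with GapmeR Ntep and 29215, 28065 and 28910 with GapmeR control. The GapmeR Ntep array of experiment 1 was the lowest by far, and the other 5 lay between 27913 and 29215. The log2 difference was -0.25 (SE 0.24, 95% interval -0.84 to 0.34, adjusted p = 0.543), of which experiment 1 showed -0.75 and experiments 2 and 3 showed 0.05 and -0.05. Without the 2 arrays of experiment 1 it was -0.0031. The overlapping probe read 14136, 19980 and 29929 against 22555, 22066 and 23056, a difference of -0.15 (SE 0.29).

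Experiments differed in how many members were higher on the array labelled GapmeR Ntep: 5 of 10 in experiment 1, 10 in experiment 2 and 8 in experiment 3. The median difference of the members was 0.05, 0.31 and 0.42 in this order, beside 0.03, 0.05 and 0.03 over all tested genes. In each of the 3 experiments the same 5 members were higher: Slc3a2, Slc7a11, Slc7a5, Slc7a3 and Slc38a2. No member was lower in all 3. Shares of all genes for these counts by experiment were not computed. Without both arrays of experiment 1, no member passed adjustment and the median was 0.36. Array weights, which limma estimated at 0.30 and 0.34 for the arrays of experiment 1 and at up to 3.04 for the others, called 4 members (Slc3a2, Slc7a11, Slc7a5 and Slc7a3, all higher) but also 33.6% of all genes. When the 75th percentile served for scaling in place of quantile normalization, this moved the median of all genes from 0.06 to 0.20 and that of the members to 0.37.

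**Figure D3:**
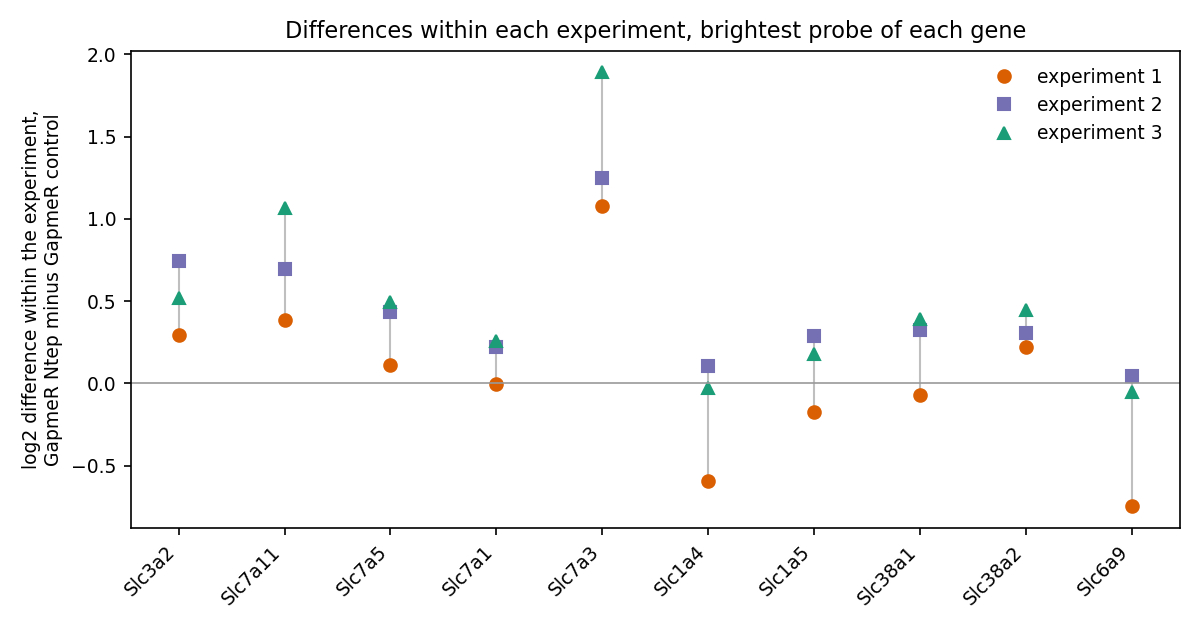
Log2 difference between GapmeR Ntep and GapmeR control within each experiment (y axis) for the brightest probe of each of the 10 transporters. Circles, squares and triangles are experiments 1, 2 and 3, with 1 array of each label per experiment. Slc3a2, Slc7a11, Slc7a5, Slc7a3 and Slc38a2 lie above 0 in all 3, and experiment 1 gives the lowest difference for each of the 10 genes.

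Amino acid transporters outside the 10 members were about evenly divided in direction. Of 43 such genes on the array, 21 were bright enough to be tested, 10 of them higher and 11 lower, with a median of -0.32. Slc1a2, Slc3a1, Slc16a10 and Slc6a20a reached the filter's mean of 50 only under GapmeR Ntep, and Slc38a3 and Slc6a19 only under GapmeR control. For these genes the filter favours the direction counted. The list median depended on the processing and was -0.11 with 75th percentile scaling and -0.0048 with normexp. It was -0.17 without GapmeR Ntep replicate 1 and -0.16 without GapmeR control replicate 2. With no filter on dim probes it was -1.7e-16. Probes under the floor of 20 on all 6 arrays take this value by construction, so it is no measured lack of difference. Slc1a7, a glutamate transporter known from retina, was the only one that passed, where 1.99% of all genes passed as higher and 3.18% as lower. It read 630, 402 and 312 with GapmeR Ntep and 124, 105 and 110 with GapmeR control, a rise of 1.93 (3.81-fold; SE 0.29, adjusted p = 0.0294). All 3 GapmeR Ntep arrays stood clear of the controls, but the adjusted p rose to between 0.0505 and 0.137 without GapmeR Ntep replicate 2 or 3 or any 1 control array. Slc38a7, a lysosomal glutamine transporter, was higher by 0.68 (adjusted p = 0.119).

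On the lower side 3 of the 21 transporters had an unadjusted p under 0.05, a share near that of all genes (12.6%), and none of them passed adjustment. Slc7a6, which like Slc7a5 and Slc7a11 pairs with the heavy chain Slc3a2, read 2089, 1587 and 2304 against 3265, 3548 and 3459. The groups did not overlap and the difference was -0.80 (SE 0.20, adjusted p = 0.0721). Slc1a3, a glutamate transporter of glia, read 788, 1751 and 1902 against 2928, 4106 and 3644 (log2 -1.35, SE 0.38, adjusted p = 0.0925), and it passed with the experiments as blocks (0.0433). Slc43a2, a carrier of branched-chain amino acids, differed by -1.05 (adjusted p = 0.181), with an adjusted p of 0.0493 when experiment 1 was left out.

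ATF4 and the genes of its pathway were mostly higher on the arrays labelled GapmeR Ntep. Of 31 genes 30 were tested, 25 were higher (54.3% of all genes), and the median was 0.55, with 0.40, 0.53 and 0.55 in the 3 experiments. For 15 of the 30 all GapmeR Ntep arrays lay above all controls (17.1% of all genes), and 4 passed adjustment, 3 higher and 1 lower. This list, like the members and the other lists, was chosen with earlier results of these data known. Its shares beside those of all genes are therefore a description and not a test. Adm2, a peptide hormone gene induced by ATF4, rose from 227 ± 70.1 to 1006 ± 258 (log2 2.16, SE 0.30, adjusted p = 0.0281). Cth, the enzyme that releases cysteine from cystathionine, rose from 4446 ± 435 to 11640 ± 3778 (1.35, SE 0.26, adjusted p = 0.0458). A second Cth probe was higher by 1.20 and did not pass (adjusted p = 0.0749). Eif2ak1, the heme-regulated eIF2alpha kinase, rose by 0.81 (adjusted p = 0.0430), while Eif2ak2, the RNA-activated kinase PKR and an interferon-induced gene, fell by 1.67 (adjusted p = 0.0301). The last 2 act upstream of ATF4.

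The other genes of this list with an unadjusted p under 0.05 were all higher. Of these, Ppp1r15a (the phosphatase subunit GADD34) was higher by 1.45 (adjusted p = 0.0992), Atf3 by 1.24 (0.115) and Mthfd2 by 1.15 (0.0749). Trib3, an inhibitor of ATF4, was higher by 0.94 (0.0570) and Chac1, which degrades glutathione, by 0.89 (0.0941). Besides Eif2ak2, the genes lower by their brightest probe were Pycr1 (-1.13, adjusted p = 0.394), Fgf21 (-0.61, 0.468), Eif2ak4 (-0.31, 0.379) and Shmt2 (-0.10, 0.845). Asns, Phgdh, Ddit4 and Psat1 were higher by only 0.23, 0.19, 0.04 and 0.02, so the list did not move as one. With the experiments as blocks 10 of the 30 passed, 8 higher and 2 lower, beside 13.9% of all genes in that fit. Among the higher ones were Atf3 (0.0360), Mthfd2 (0.0456) and Ppp1r15a (0.0337), and the 2 lower ones were Eif2ak2 and Pycr1. Atf4 itself, given for its role although outside the naming rule, was by its brightest probe higher by 0.36 (SE 0.16, adjusted p = 0.224), and its second probe, which read 13644, 10185 and 12636 against 5426, 3636 and 4384, was higher by 1.45 (adjusted p = 0.0312). All 4 calls by the brightest probe were lost without any 1 of the arrays other than GapmeR Ntep replicate 2, and Eif2ak1 and Cth without that one too. No gene of the whole array passed when either replicate 3 of GapmeR Ntep or replicate 2 of GapmeR control was absent.

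**Figure D4:**
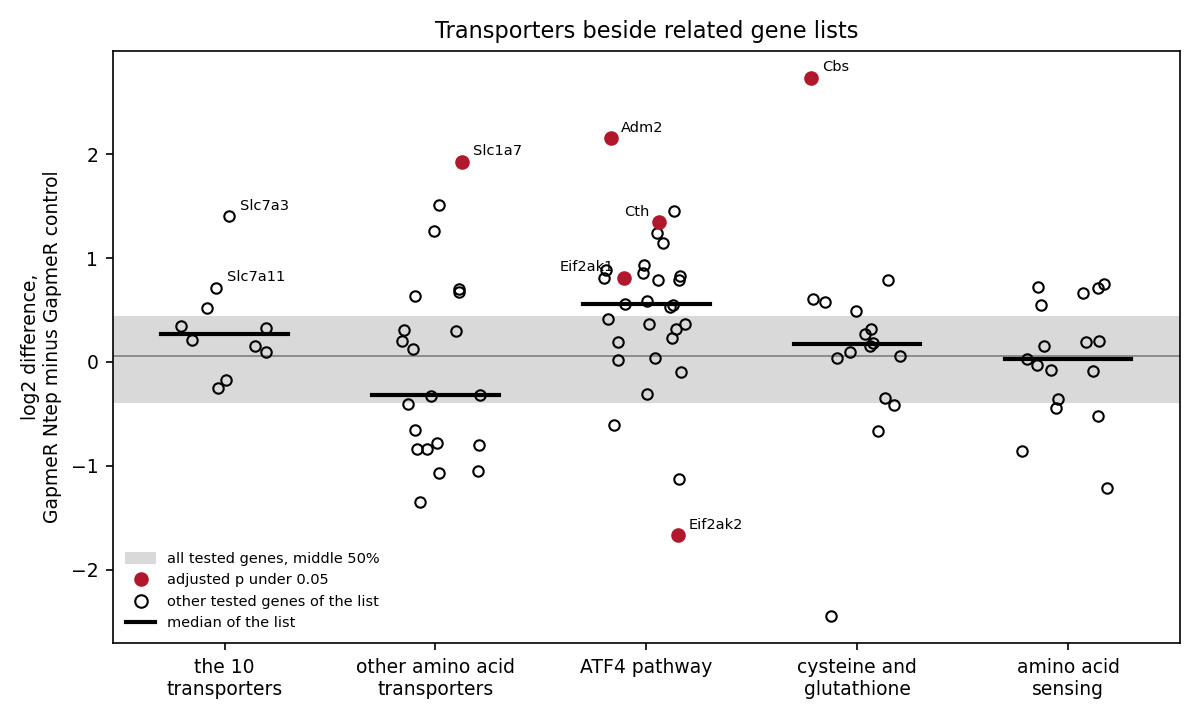
Log2 difference between GapmeR Ntep and GapmeR control (y axis) for the tested genes of 5 lists, by the brightest probe. Filled red points passed an adjusted p under 0.05, thick lines are list medians (0.27, -0.32, 0.55, 0.17 and 0.03 from left to right), and the grey band holds the middle 50% of all tested genes with their median as a thin line.

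Genes of cysteine and glutathione metabolism, which depends on the cystine that Slc7a11 carries, had a median of 0.17 over 16 genes. Of these 12 were higher and 4 lower, where 54.3% of all genes were higher. Cbs, the enzyme before Cth on the path from homocysteine to cysteine, passed and read 674, 195 and 237 with GapmeR Ntep against 58.0, 40.7 and 44.5 (log2 2.74, SE 0.49, adjusted p = 0.0379). It was well above background on all GapmeR Ntep arrays but on only 1 of the 3 controls. The control mean of 47.7 lay under the filter, so Cbs was tested through the GapmeR Ntep arrays alone, and with no filter on dim probes it did not pass (0.115). With the normexp correction it was higher by 1.36 and no longer passed (0.0885). Without experiment 1, where the difference was 3.54, Cbs was higher by 2.46 and passed (adjusted p = 0.0455). Srxn1, a target of NRF2, was higher by 0.60 (adjusted p = 0.151) and the glutathione synthetase gene Gss by 0.57 (0.183). Lower were Gclc, the catalytic subunit of the enzyme that starts glutathione synthesis (-0.66, 0.124), and Ggt1, which breaks down extracellular glutathione (-2.45, 0.127). Ggt1 was not well above background on GapmeR Ntep replicate 1, so the size of its difference is uncertain, and it passed with the experiments as blocks (0.0315). Without experiment 1 Ggt1 differed by -2.23 and passed (adjusted p = 0.0494), while Gclc differed by -0.41 (0.182). Nqo1 and Hmox1, other NRF2 targets named here after their values were seen, differed by 0.27 and 0.49 with adjusted p-values of 0.377 and 0.321.

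Of 20 genes of amino acid sensing by mTORC1, the kinase complex that drives growth, 17 were tested. The list includes Mtor and Rptor, which are parts of the complex itself. A higher mean was found for 9 and a lower one for 8, with a median of 0.03. None passed, and 5 had an unadjusted p under 0.05, all of them higher. They were Flcn (0.75, adjusted p = 0.129) and its partner Fnip1 (0.67, 0.14), Rragc (0.72, 0.14), Lamtor3 (0.54, 0.14; listed under its older name Mapksp1) and Mtor (0.71, 0.112). A second probe of Mtor, near the end of the transcript, went the other way (-0.29, adjusted p = 0.545), so the direction of Mtor is not settled by these probes. An intensity trend in limma called 1 gene of this list and array weights called 7. With the experiments as blocks 3 of the 17 passed, in a fit that called 13.9% of all genes: Rragc (0.0450), the first Mtor probe (0.0492) and Castor2, listed as Gatsl2, which was lower by this label (-1.22) and was named after its value was seen.

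Markers of other cell types also differed between the labels, and their part in the transporter values was not tested. Summed over 8 macrophage markers, the signal was 42986 to 75392 on the arrays labelled GapmeR Ntep and 21070 to 27731 on the controls. Of these 8 genes 6 were tested and 4 were higher, and Cd68 passed (1.21, adjusted p = 0.0287), while Adgre1 (listed as Emr1) and Ptprc, which define macrophages and leukocytes, were not well above background on any array. The 12 fibroblast markers summed to 555876 to 737725 and 808933 to 892310, with 10 of 11 tested genes lower and none past adjustment. With the experiments as blocks 5 macrophage markers (Cd14, Cd68, Itgam and Csf1r higher, Aif1 lower) and 1 fibroblast marker (Dcn, lower) passed. That fit called 13.9% of all genes. Without experiment 1, where 620 of 21585 genes passed, the fibroblast marker Postn and the macrophage marker Csf1r did. These calls are by the brightest probe, and in the unpaired fit a second Csf1r probe differed by 0.44 (adjusted p = 0.267). A second Cd68 probe differed by 0.68 (0.143). Epithelial markers overlapped between the labels (6000 to 7715 and 4449 to 6981), and the endothelial ones were low (768 to 846 and 599 to 686), with 4 of 6 not above background on any array.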

How the data were processed

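RNA of 3T3 cells from 3 independent experiments was measured on 6 one-color Agilent mouse arrays, 3 per label. Per the submitters' processing notes, the authors extracted signals with Agilent Feature Extraction 10.7.3.1, and they deposited background-subtracted intensities per array, on a linear scale and not normalized between arrays. Their table of normalized intensities was used as an alternative. The labels give 50 nM, and the study's sample list states the dose differently.

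Here, spots were averaged per probe (55681 probes), quantile normalization was applied across the arrays, and signals below the floor of 20 were raised to it before taking log2. Labels were compared by limma, version 3.58.1, under R, version 4.3.3, with data.table, version 1.17.8, and jsonlite, version 2.0.0. Tests were unpaired and two-sided, with Benjamini-Hochberg adjustment over the 30990 probes whose mean reached 50 under either label. For counts of genes, the brightest probe (highest mean over the 6 arrays) stood for a gene name. A member or list gene passed at an adjusted p under 0.05. Before normalization the 75th percentiles were 946 to 1347, and the number of arrays limits the precision. Steps were tested on simulated data.

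The study's sample list ties arrays with the same number to 1 experiment each. Deviations from the group means correlated at 0.466, 0.300 and 0.254 for these pairs and at -0.327 to 0.126 for others, so a fit with experiments as blocks was run beside the unpaired one. The replicate numbers follow the order of the samples and match that list.

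Members and lists were chosen with earlier results of these data known. Named are all members with every probe and, of each list, genes that passed and otherwise at most the 5 higher and 5 lower with the largest differences at an unadjusted p under 0.05, well above background on all arrays of 1 label. Atf4, Nqo1, Hmox1, Castor2, Rptor, the markers and the transporters that reached the filter under 1 label only are named outside this rule. So are Pycr1, Fgf21, Eif2ak4, Shmt2, Asns, Phgdh, Ddit4 and Psat1 of the ATF4 list. List genes were found by symbol or by the array's older name, and Slc6a5 has no probe. Alternatives were other normalizations, floors and filters, removal of outlier spots, blocks, array weights, an intensity trend, the methods' t-test, any probe of a gene and the omission of each array. Omission of experiment 1 was added after seeing the data. Positions of probes are those of mm9 in the files, and exon or UTR annotation of that build was not used here.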

Additional observations from a re-analysis of the deposited data

How the results depend on the processing

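The median difference of the members stayed positive in all 17 alternatives, from 0.17 to 0.37 (0.17 to 0.31 when 1 array was left out). Several of these could not move it: the floor, the filters, the replicate block and the intensity trend do not alter the members' differences and returned the same 0.27. Other normalizations, removal of outlier spots, array weights and omission of arrays could move it. The count of member genes called was 0 in all but 2 alternatives: 1 with the replicate block and 4 with array weights. Among member probes these settings called 1 and 5, and with the block 1 member passed a fold of 2 with p under 0.01. When 1 array was left out, 0 members passed. The number of members higher without overlap was 2, where 17.1% of all genes had this pattern. It became 5 with 75th percentile scaling, 8 without both arrays of experiment 1, and 2 to 6 when 1 array was left out. Shares of all genes were not computed for these settings. Fewer arrays separate more easily, and 75th percentile scaling also raised the median of all genes (0.20). These counts are therefore not read as a result about the members.

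For the other transporters 1 gene was called. There were 2 with the replicate block, with the filter for probes well above background and without experiment 1, 10 with array weights, and 0 with no filter on dim probes and with the methods' t-test (0 to 1 when 1 array was left out). For the ATF4 pathway 4 genes were called, and 2 with 75th percentile scaling, 1 with no filter on dim probes and with the methods' t-test, 7 with the filter for probes well above background, 9 with the intensity trend, 10 with the replicate block, 17 with array weights and 0 without experiment 1 (0 to 3 when 1 array was left out). For cysteine and glutathione genes 1 was called, with 2 under the replicate block and without experiment 1, 8 under array weights, and 0 under normexp, with no filter and with the methods' t-test (0 to 1 when 1 array was left out). For amino acid sensing genes none was called, but 3 with the replicate block, 7 with array weights and 1 with the intensity trend. Why these counts moved was not tested. Over all genes, 1140 were called, 3072 with the block, 7411 with array weights, 204 with the methods' t-test, 401 with no filter and 0 to 986 when 1 array was left out. The methods' t-test at a fold of 2 and p under 0.01 passed no member. After normexp, whose offset lifts every probe over the filter, all 35527 gene names were tested.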
